A study of Mus musculus with 91 samples.

Results

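The cluster of miR-183, miR-96 and miR-182 is a group of 3 neighbouring miRNA genes, and 4 of its mature products were followed across mouse gastrulation, semi-cloned embryos and haploid stem cells. The members were taken by name, in a rule that uses no measured value: miR-183-5p, miR-183-3p, miR-96-5p and miR-182-5p, which are 4 of the 1504 mature miRNAs counted. A miRNA is a short RNA that guides a silencing complex to mRNAs, chiefly through pairing of its seed, the stretch from base 2 to base 8. The 3 genes of this cluster lie on the same strand and are known to be processed from common primary transcripts. They are best known from sensory organs, where they are abundant in hair cells and photoreceptors, and they are also found in pluripotent cells and in epithelial tumours.

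Small RNA libraries were made by CAS-seq, a Cas9-assisted small RNA sequencing method for very little input RNA. Of 91 libraries, 88 were placed in 25 groups by their labels, and the other 3, labelled 408-AG-haESC, were left out of every comparison. Extraembryonic ectoderm (Exe) and epiblast (Epi) were dissected at embryonic days 6.5 and 7.5 from embryos of 4 kinds (control, Dnmt1-KO, Dnmt3a/3b-DKO, Dnmt-null), with 4 libraries a group except for 3 in E7.5 Epi control and 3 in E7.5 Epi Dnmt-null. Those mutants lacked the maintenance DNA methyltransferase, both de novo enzymes, or all of them, and were made by injecting a base editor and guide RNAs that introduce stop codons into zygotes. The zygotes came from B6D2F1 females (C57BL/6J x DBA2) and males that carry the Oct4-EGFP transgene in a C57BL/6J background. The androgenetic haploid embryonic stem cells (AG-haESCs) carry a sperm genome: WT (3 libraries), O48 (3), which the methods give as the parent of the miRNA-deleted cells and which was read as the line without the H19 and IG methylated control regions, and Mir-6KO (2), made from O48 by deleting 6 miRNA genes and grown from single cells. Semi-cloned (SC) embryos were obtained by injecting such cells into oocytes: at E6.5 those labelled WT, DKO, DKO;Dnmt-null or Dnmt-null, where DKO names the 2 deleted control regions, and at E7.5 a control made from DKO cells and Mir-6KO;Dnmt-null, with 3 libraries each. The study's figure legends give the E6.5 SC samples labelled WT, DKO and Dnmt-null as epiblast, and name no tissue for those of E7.5. The labels do not say whether replicates came from separate embryos or cultures, so the p-values measure the spread between these libraries, which may be technical.

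The mature sequences below are shown because each member has a seed of its own, printed in capitals, while the 5p arms also share most of it; they are RefSeq sequences on GRCm38.p6, all on the minus strand of chromosome 6. All 4 members matched the sequence table.

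mmu-miR-183-5p: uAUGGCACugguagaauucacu

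mmu-miR-96-5p: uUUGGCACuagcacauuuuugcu

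mmu-miR-182-5p: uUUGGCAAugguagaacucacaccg

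mmu-miR-183-3p: gUGAAUUAccgaagggccauaa

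miR-183-5p lies at chr6:30169711-30169732, miR-183-3p at chr6:30169672-30169693, miR-96-5p at chr6:30169506-30169528 and miR-182-5p at chr6:30165962-30165986. The 3 hairpins span 3820 bp, from Mir182 (30165918 to 30165992) through Mir96 (30169446 to 30169551) to Mir183 (30169668 to 30169737). Only 116 bp separate Mir96 from Mir183, against 3453 bp between Mir182 and Mir96. No protein-coding gene overlaps the cluster, which is intergenic between Nrf1, which ends at 30153458, and Ube2h, which begins at 30211289, and the long noncoding RNA gene Rncr4 begins on the other strand at 30172893.

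Each 5p seed has its own letters. Counted from 1 at the 5′ end, the seeds of miR-183-5p and miR-96-5p differ by A2U, those of miR-96-5p and miR-182-5p by C8A, and those of miR-183-5p and miR-182-5p by both A2U and C8A. Over the positions that can be compared without gaps, miR-183-5p and miR-182-5p share 18 of 22 bases, miR-183-5p and miR-96-5p 13 of 22, and miR-96-5p and miR-182-5p 12 of 23. The seed of miR-183-3p, from the other arm of the Mir183 hairpin, is unrelated to these. One further miRNA of the table, miR-1271-5p, has the seed of miR-96-5p, but too few counts for a test in any comparison.

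Library totals were 45242 to 600821 counts in the E6.5 dissected tissues, 266379 to 2394918 at E7.5, 3813865 to 16501907 in AG-haESCs and 154061 to 26970637 in SC embryos. The Dnmt mRNAs are not in a miRNA table, so the genotypes could not be checked there. The tissue labels were checked on marker miRNAs: the summed level of the miR-302 and miR-367 cluster, an epiblast marker, was 48473 to 212606 CPM, meaning counts scaled to a common library size, in Epi and 5617 to 45944 CPM in Exe. For 9 miRNAs of the Sfmbt2 cluster, a trophoblast marker, it was 41320 to 98549 CPM in Exe and 871 to 35293 CPM in Epi. Some groups or libraries went against their labels. In both AG-haESC libraries labelled Mir-6KO, miR-302 and miR-367 together summed to 239331 and 268002 CPM against 924 to 3914 CPM in the WT and O48 cells, and of the 12 measured arms of the 6 deleted genes, 10 were above every O48 library and 0 below. SC E6.5 WT replicate 3 had 21252 CPM of miR-302 and miR-367, against 195381 and 214514 CPM in the other WT libraries. In SC E6.5 Dnmt-null the Sfmbt2 cluster sum was 19283 to 60465 CPM (median 19304 CPM), so its highest library lay within the Exe range. Results that rest on these libraries are given with that fact beside them. Blood marker sums reached 8515 CPM in E6.5 Exe Dnmt1-KO (median 524 CPM) and 6412 CPM in E7.5 Exe Dnmt3a/3b-DKO (median 636 CPM). Sums of mesenchyme or decidua markers reached 4228 CPM in E6.5 Exe Dnmt1-KO (median 544 CPM). The part of such cells in the results was not tested.

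The 5p arms were counted in every library, with miR-182-5p above miR-183-5p and miR-96-5p lowest in the group means of all dissected tissues. By mean CPM, miR-182-5p ranked 7 to 12 of all 1504 miRNAs in the Epi groups and 24 to 31 in the Exe groups. miR-183-5p ranked 14 to 21 in Epi and 34 to 41 in Exe, and miR-96-5p 32 to 68 and 71 to 116. In AG-haESC WT and O48 cells miR-183-5p was the most counted miRNA of all, and miR-182-5p ranked 2 and 4. Small RNA ligation favours some sequences over others, so ranks and ratios between miRNAs are counts within a library, not molar amounts, and only their change between libraries is compared here.

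**Figure D1:**
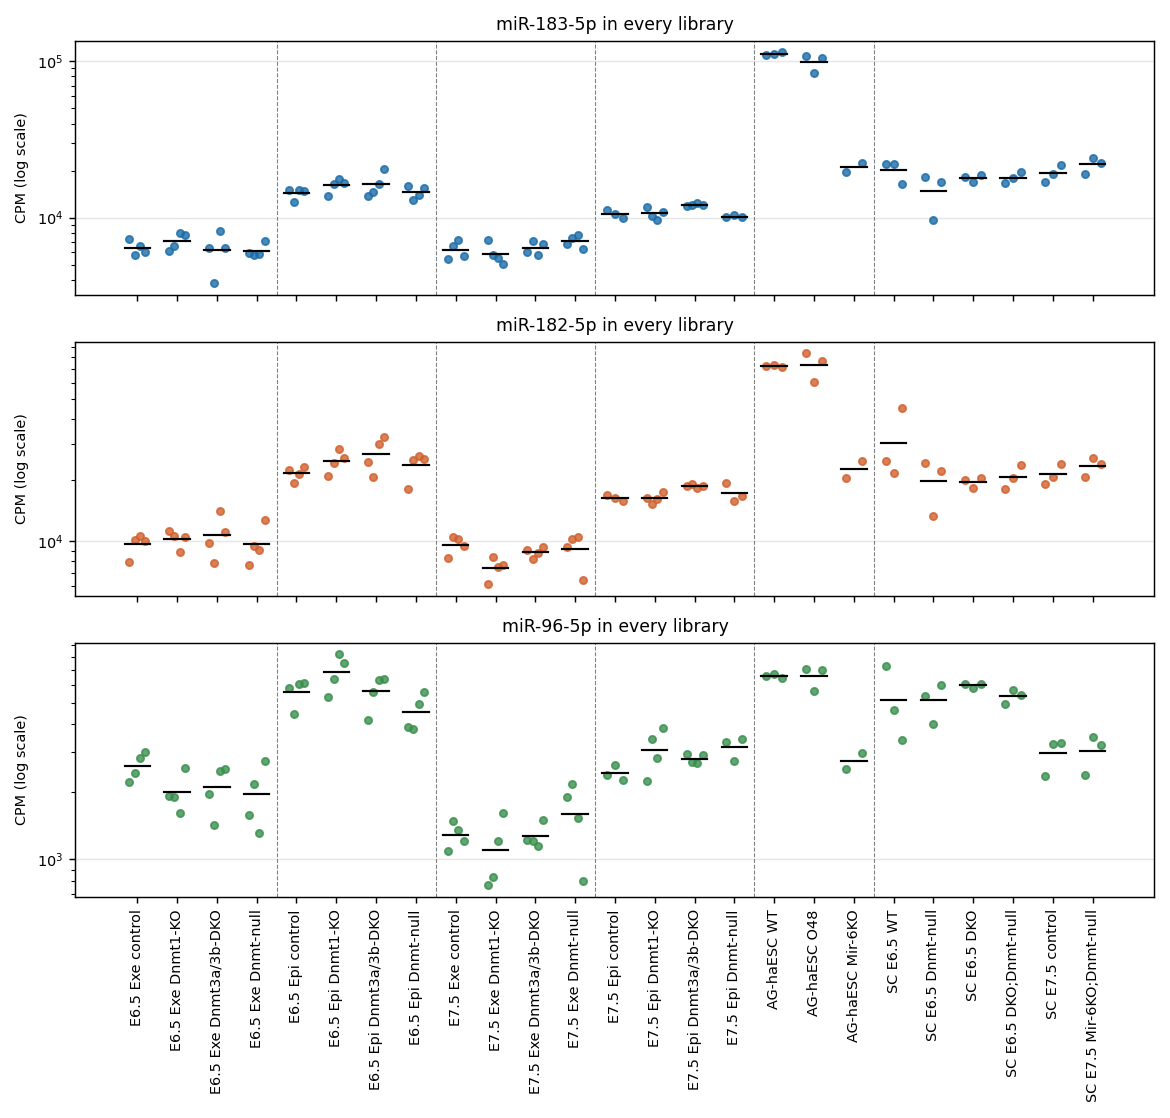
CPM of miR-183-5p, miR-182-5p and miR-96-5p (log axes) in each of the 88 grouped libraries; a point is a library, a black line the group mean, and dashed lines separate stages, tissues and sample kinds. Every Epi group sits above the Exe group of its stage and genotype, and the WT and O48 stem cells sit highest for miR-183-5p and miR-182-5p.

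The first comparison asked how the cluster differed between the tissue that forms the embryo proper and its extraembryonic neighbour. All 3 of the 5p arms were lower in Exe than in Epi at both stages and in every genotype. miR-183-5p, abundant in sensory epithelia, had 7331, 5762, 6551 and 5996 CPM in E6.5 control Exe and 14915, 12616, 15008 and 14859 CPM in E6.5 control Epi. In E7.5 controls it had 5454, 6572, 7215 and 5645 CPM in Exe and 11185, 10594 and 9889 CPM in Epi. At neither stage did the control tissues overlap. The log2 difference between Exe and Epi was -1.44 (SE 0.18, edgeR quasi-likelihood adjusted p = 7.34e-09) at E6.5 and -1.16 (SE 0.19, adjusted p = 2.16e-06) at E7.5.

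miR-182-5p, known to act beside miR-183-5p in photoreceptors, was the most counted member in both tissues. Its E6.5 control values were 7909, 10157, 10579 and 10050 CPM in Exe and 22282, 19413, 21359 and 23154 CPM in Epi. Those of E7.5 were 8304, 10494, 10212 and 9431 CPM in Exe and 16901, 16216 and 15764 CPM in Epi. The lowest Epi library was again above the highest Exe library. The log2 differences were -1.43 (SE 0.18, adjusted p = 7.34e-09) at E6.5 and -1.16 (SE 0.19, adjusted p = 2.06e-06) at E7.5, close to those of miR-183-5p.

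miR-96-5p, whose seed mutations cause progressive hearing loss, was the least counted 5p arm. It had 2220, 2424, 2835 and 3011 CPM in E6.5 control Exe and 5798, 4435, 6041 and 6098 CPM in E6.5 control Epi. In E7.5 controls it had 1091, 1487, 1350 and 1203 CPM in Exe and 2388, 2636 and 2260 CPM in Epi. The tissues did not overlap within a stage, although E6.5 Exe reached the range of E7.5 Epi. The log2 difference was -1.37 (SE 0.25, adjusted p = 2.23e-05) at E6.5 and -1.32 (SE 0.26, adjusted p = 4.53e-05) at E7.5.

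In the mutants the order of the tissues was the same. For miR-183-5p, the E6.5 mutant libraries held 3812 to 8182 CPM in Exe and 12950 to 20410 CPM in Epi, and the E7.5 mutant libraries 5028 to 7689 and 9683 to 12430 CPM. For miR-182-5p these ranges were 7620 to 14130 and 18036 to 32616 CPM at E6.5, and 6167 to 10485 and 15295 to 19233 CPM at E7.5. Across all 8 comparisons of tissue, the log2 difference ran from -1.51 to -0.63 for miR-183-5p, from -1.45 to -1.03 for miR-182-5p and from -1.96 to -1.13 for miR-96-5p. Every one of these 24 tests was called at an adjusted p under 0.05, and in none did the libraries of the tissues overlap. Among all miRNAs tested, 14.3% were called lower in Exe in E6.5 control, 13.5% in E6.5 Dnmt1-KO, 11.2% in E6.5 Dnmt3a/3b-DKO and 8.36% in E6.5 Dnmt-null. At E7.5 the same shares were 9.88%, 10.3%, 11.1% and 6.69%. The median log2 difference of all miRNAs lay between -0.43 and 0.05.

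The smallest difference was that of miR-183-5p in E7.5 Dnmt-null embryos, where Exe had 6761, 7425, 7689 and 6311 CPM and Epi 10096, 10319 and 10039 CPM. Its log2 difference of -0.63 (SE 0.19, adjusted p = 0.0154) was no longer called with no filter on low counts (adjusted p = 0.141), without Exe replicate 1 (-0.43, adjusted p = 0.214), or without Epi replicate 1, 2 or 3 (adjusted p = 0.146, 0.0819 and 0.123). For miR-96-5p and miR-182-5p, 0 of 126 alternative fits each ended a call. Epiblast markers were present in Exe and trophoblast markers in Epi, at the levels given above, and their part in these differences was not tested. In bulk tissue, fewer cells that express a miRNA and less of it in each cell cannot be told apart.

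miR-183-3p, the passenger arm of the Mir183 hairpin, was counted at most 17 times in any dissected E6.5 library. In the E6.5 Dnmt1-KO libraries it was counted 1, 0, 0 and 0 times in Exe and 15, 9, 0 and 5 times in Epi (adjusted p = 0.0302). In E6.5 Dnmt3a/3b-DKO it was counted 0, 2, 0 and 0 times in Exe and 11, 17, 8 and 5 times in Epi (adjusted p = 0.0397). With so few counts in Exe no fold is given, and both calls were lost with no filter on low counts (adjusted p = 0.139 and 0.125) and in 5 of the fits that left out 1 library each (adjusted p up to 0.0986 and 0.107). At E7.5 it was absent from all 4 Dnmt1-KO Exe libraries and had 30.0, 15.1, 35.0 and 23.3 CPM in Epi, which is at least 7.81-fold lower in Exe when each library at 0 is set to 3 counts (adjusted p = 3.55e-04). The other 5 tissue comparisons of miR-183-3p were not called. Among the E7.5 control Exe libraries alone it ranged from 0 to 46.7 CPM.

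**Figure D2:**
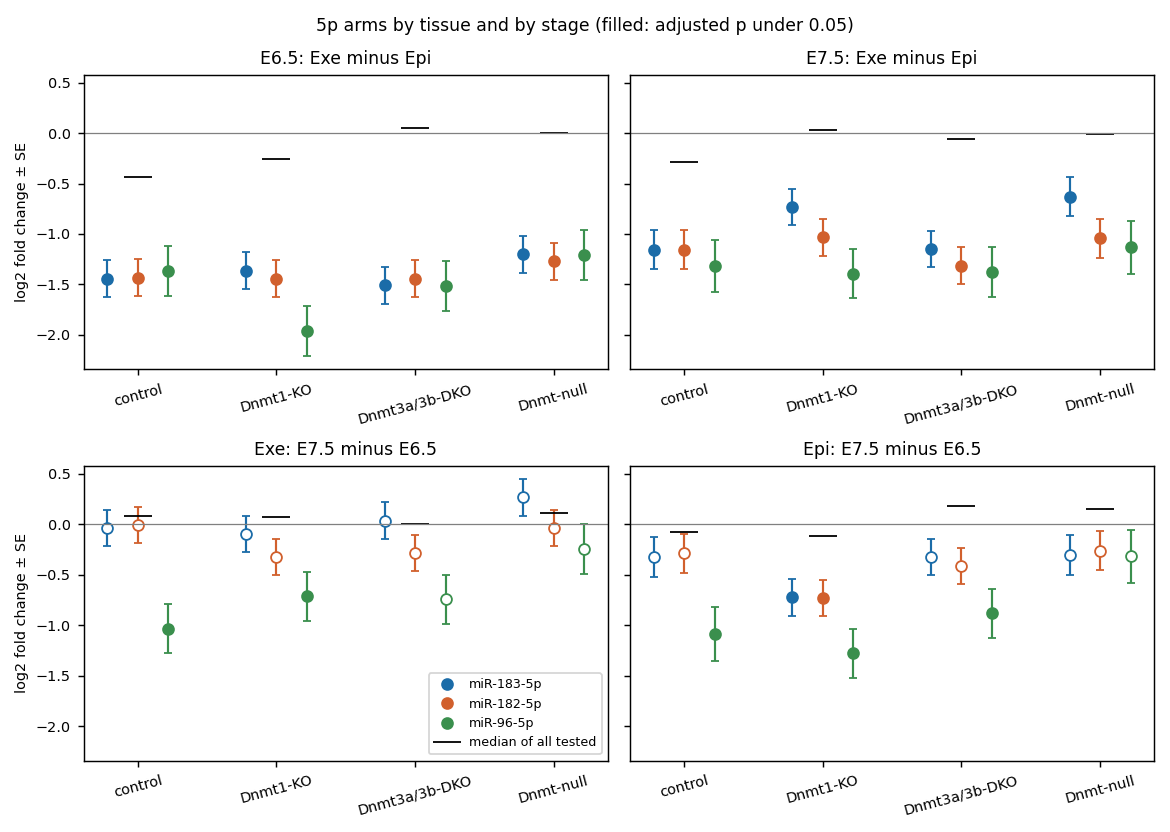
Log2 fold change ± SE of the 5p arms for Exe minus Epi (top) and E7.5 minus E6.5 (bottom) in each genotype; filled points have an edgeR adjusted p under 0.05, and black dashes give the median of all miRNAs tested. All 24 tissue points lie between -1.96 and -0.63, while only miR-96-5p is filled at more than 1 stage comparison.

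The second comparison followed each tissue from E6.5 to E7.5, the day on which the primitive streak elongates. Here the calls differed by member. miR-96-5p was called lower at E7.5 in several groups, and miR-183-5p and miR-182-5p in 1 group each. In control Exe, miR-96-5p went from the 2220 to 3011 CPM listed above to 1091 to 1487 CPM, a log2 difference of -1.03 (SE 0.24, adjusted p = 0.00301). In control Epi it went from 4435 to 6098 CPM to 2260 to 2636 CPM, a log2 difference of -1.09 (SE 0.27, adjusted p = 0.00174). The stages did not overlap in either control tissue. In Exe 1.98% of all miRNAs were called lower at E7.5 in controls, and in Epi 11.4%.

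In Dnmt1-KO embryos miR-96-5p had 1922, 1893, 1607 and 2559 CPM in E6.5 Exe and 769, 836, 1210 and 1608 CPM in E7.5 Exe. In Dnmt1-KO Epi it had 5289, 6358, 8230 and 7508 CPM at E6.5 and 2246, 3431, 2834 and 3849 CPM at E7.5. The stages touched in Exe, where the highest E7.5 library was just above the lowest E6.5 library, and stayed apart in Epi. The log2 differences were -0.71 (SE 0.24, adjusted p = 0.0381) in Exe, where 6.23% of all miRNAs were called lower, and -1.28 (SE 0.24, adjusted p = 1.06e-04) in Epi, where 5.02% were. The Exe call was lost when the Dlk1-Dio3 miRNAs were left out of the TMM normalization factors (adjusted p = 0.136), when only the compared groups were fitted (adjusted p = 0.115), and without E6.5 replicate 4 or E7.5 replicate 2 (adjusted p = 0.147 and 0.0696). The Epi value was -1.04 (adjusted p = 0.0601) with no filter on low counts.

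In Dnmt3a/3b-DKO embryos miR-96-5p had 1963, 1425, 2487 and 2537 CPM in E6.5 Exe and 1227, 1208, 1143 and 1497 CPM in E7.5 Exe. In Epi of this genotype it had 4168, 5604, 6317 and 6366 CPM at E6.5 and 2938, 2707, 2686 and 2913 CPM at E7.5. Only Epi separated the stages completely. The Epi difference was -0.88 on the log2 scale (SE 0.24, adjusted p = 0.0151), where 1.98% of all miRNAs were called lower, and it was lost when the normalization left out the Dlk1-Dio3 miRNAs (adjusted p = 0.081), with no filter (adjusted p = 0.158), and without E7.5 replicate 3 or 4 (adjusted p = 0.158 and 0.124). The Exe difference of -0.74 (SE 0.24, adjusted p = 0.0622) was not called, beside 0.912% of all miRNAs that were, but passed the threshold by the DESeq2 Wald test (adjusted p = 0.0104), with RLE factors (0.0287), with a mean of 10 counts (0.0288), with a replicate block (-0.73, adjusted p = 0.0404), with the compared groups only (0.0452) and without E6.5 replicate 2 (0.0285).

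In Dnmt-null embryos miR-96-5p had 1572, 2177, 1308 and 2761 CPM in E6.5 Exe and 1900, 2168, 1530 and 805 CPM in E7.5 Exe. In Dnmt-null Epi it had 3890, 3820, 4936 and 5578 CPM at E6.5 and 3353, 2737 and 3434 CPM at E7.5. The Exe libraries of the stages were interleaved, whereas all 3 E7.5 Epi libraries were below the E6.5 libraries. The log2 differences of -0.24 in Exe (SE 0.24, adjusted p = 0.709) and -0.32 in Epi (SE 0.26, adjusted p = 0.762) were not called, in comparisons where 0% and 0.456% of all miRNAs were called lower. The Exe value has no settled sign: it was 0.01 with the normalization that left out the Dlk1-Dio3 miRNAs and 0.03 without E6.5 replicate 4.

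Whether the stage difference of miR-96-5p itself differed between Dnmt-null and control was tested as an interaction. The interaction was 0.79 on the log2 scale in Exe (SE 0.34, adjusted p = 0.586) and 0.77 in Epi (SE 0.37, adjusted p = 0.227), and neither was called. Against control, 0.76%, 0.304% and 0.608% of all miRNAs were called in the stage interactions of the mutants (Dnmt1-KO, then Dnmt3a/3b-DKO, then Dnmt-null) in Exe, and 0.456%, 4.56% and 10.6% in Epi. The tests of tissue-dependent genotype effects called 0%, 0% and 0.912% at E6.5 and 0%, 0.76% and 0.608% at E7.5, and that of the tissue difference between stages in controls 6.53%. Of the 52 interaction tests of the members, edgeR called 0, with 3 at an unadjusted p under 0.05, and DESeq2 called 0.

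miR-183-5p and miR-182-5p were called lower at E7.5 in Dnmt1-KO Epi alone. There miR-183-5p had 13686, 16294, 17624 and 16724 CPM at E6.5 and 11722, 10220, 9683 and 10906 CPM at E7.5, and miR-182-5p had 20878, 24108, 28320 and 25673 CPM and then 16342, 15295, 16181 and 17356 CPM. The stages did not overlap for either. The log2 differences were -0.72 (SE 0.18, adjusted p = 0.00432) and -0.73 (SE 0.18, adjusted p = 0.00375). They shrank to -0.40 and -0.41 (adjusted p = 0.236 for both) when the normalization left out the Dlk1-Dio3 miRNAs, and were also lost with no filter (adjusted p = 0.445 and 0.363), with a filter on a mean of 10 counts (adjusted p = 0.0984 and 0.111), and without E6.5 replicate 2, 3 or 4 or E7.5 replicate 3 or 4, where adjusted p ran from 0.0548 to 0.135. The miR-182-5p call was lost without E7.5 replicate 1 too (adjusted p = 0.0537). In the other 7 groups their log2 differences lay between -0.41 and 0.27 and were not called. By CPM, however, both arms were lower at E7.5 without overlap in control Epi and in Dnmt3a/3b-DKO Epi. So were miR-183-5p in Dnmt-null Epi and miR-182-5p in Dnmt1-KO Exe. The E7.5 libraries were deeper than those of E6.5, and depth and stage cannot be told apart in this design. Several marker sums also moved with stage without overlap. That of miR-290 went from 66265 to 99141 CPM to 41847 to 53274 CPM in control Exe. In control Epi it went from 59126 to 63078 CPM to 14438 to 14904 CPM. There the Sfmbt2 cluster sum had 7996 to 35293 CPM at E6.5 and 2648 to 3308 CPM at E7.5. Sums of endoderm, mesenchyme and miR-302 and miR-367 markers rose there. In Dnmt1-KO Epi miR-290 had 48439 to 65406 and 17299 to 26654 CPM, and the Sfmbt2 cluster 5572 to 8851 and 3911 to 4788 CPM. Their part in the stage differences was not tested.

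A ratio within a library needs no normalization between libraries. The count ratio of miR-96-5p to miR-182-5p was 0.259 ± 0.023 (SD, n = 4) in E6.5 control Epi and 0.149 ± 0.012 (n = 3) in E7.5 control Epi. In control Exe it was 0.272 ± 0.026 (n = 4) and 0.133 ± 0.0060 (n = 4). It was lower at E7.5 in every genotype and tissue by its mean: 0.194 and 0.149 in Dnmt1-KO Exe, 0.275 and 0.190 in Dnmt1-KO Epi, 0.197 and 0.143 in Dnmt3a/3b-DKO Exe, and 0.212 and 0.150 in Dnmt3a/3b-DKO Epi. In Dnmt-null embryos the means were 0.199 ± 0.038 and 0.172 ± 0.043 in Exe and 0.194 ± 0.031 and 0.184 ± 0.018 in Epi, so that they differed by less than the spread between replicates. The ratio of miR-183-5p to miR-182-5p moved less, with group means of 0.575 to 0.814 over the 16 dissected groups. These ratios are descriptions, given with no test.

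**Figure D3:**
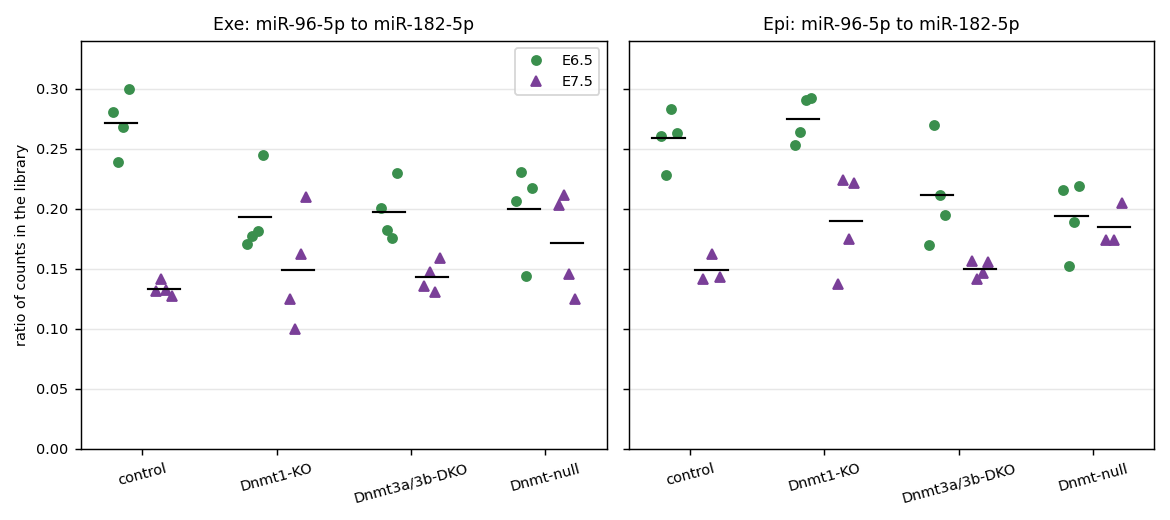
Ratio of miR-96-5p to miR-182-5p counts in each dissected library, by genotype and tissue, at E6.5 (circles) and E7.5 (triangles), with group means as black lines. In controls the stages are apart in both tissues (E6.5 at 0.228 or higher, E7.5 at 0.163 or lower), while they overlap in Dnmt-null embryos of both tissues and in Dnmt1-KO Exe.

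The third comparison set each Dnmt mutant against control of the same tissue and stage. The cluster differed little: of 45 tests of the members, edgeR called 1, with 4 at an unadjusted p under 0.05. For the 5p arms the log2 differences ranged from -0.64 to 0.31, with SE of 0.096 to 0.288. At E6.5, 0%, 0.532% and 0.532% of all miRNAs were called against control, in the same order of mutants, in Exe, and 0.733%, 3.42% and 13% in Epi. At E7.5 the shares were 5.03%, 3.02% and 9.88% in Exe, and 16.3%, 7.67% and 33.7% in Epi. So the single call among the members fell in the comparison where about 1 in 3 miRNAs were called.

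That call was miR-183-5p in E7.5 Epi, lower in Dnmt-null (10096, 10319 and 10039 CPM) than in control (11185, 10594 and 9889 CPM). The groups overlapped, since the lowest control library was below all Dnmt-null libraries. The log2 difference was -0.29 (SE 0.10, adjusted p = 0.0416), beside a median of -0.19 over all miRNAs. It was not called by DESeq2 (adjusted p = 0.172), with RLE factors (adjusted p = 0.182), with no filter (adjusted p = 0.608) or when any 1 of the 6 compared libraries was left out (adjusted p = 0.0585 to 0.239). With the Dlk1-Dio3 miRNAs left out of the normalization, which moved the median of all miRNAs by 0.32, it became 0.04 (adjusted p = 0.857). Marker sums moved with this comparison and did not overlap: miR-302 and miR-367 had 105333 to 164935 CPM in Dnmt-null and 202279 to 212606 CPM in control, the 9 Sfmbt2 cluster miRNAs 5533 to 11332 and 2648 to 3308 CPM, and the 4 miR-290 cluster miRNAs 23108 to 29547 and 14438 to 14904 CPM. None of these markers was at 0 in a whole group. Endoderm miRNAs (2334 to 3042 CPM in Dnmt-null and 3459 to 4174 CPM in control) did not overlap either. Nor did those of mesenchyme or decidua (85.7 to 160 and 277 to 413 CPM). The part of all these markers in the difference was not tested.

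miR-96-5p was 0.64 lower on the log2 scale in Dnmt-null than in control Exe at E6.5 (SE 0.29, adjusted p = 0.298), with overlapping libraries, and was not called. At E7.5 the 3 Dnmt-null Epi libraries of miR-96-5p were all above the 3 control libraries listed above, yet the log2 difference of 0.16 (SE 0.17, adjusted p = 0.520) was not called either. miR-183-3p was at 0 in the 4 Dnmt1-KO Exe libraries of E7.5, and in control Exe it was counted 1, 40, 18 and 0 times. Set against 3 counts per library this is at least 4.31-fold lower, but at least 1.04-fold without control replicate 2, the library with 40 counts, and it was not called by edgeR (adjusted p = 0.0707) but was by DESeq2 (adjusted p = 0.0124). At E6.5 miR-183-3p had too few counts in Exe to be tested.

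Dnmt-null embryos were also compared with the embryos that keep DNMT1 or DNMT3A/3B. Of 30 tests of the members 1 was called, with 4 at an unadjusted p under 0.05. In E7.5 Epi, miR-183-5p was lower in Dnmt-null than in Dnmt3a/3b-DKO, which had 11850, 11970, 12430 and 12115 CPM, all above the Dnmt-null libraries. The log2 difference was -0.40 (SE 0.097, adjusted p = 0.00872), beside a median of -0.19 over all miRNAs. It was -0.24 by DESeq2 (adjusted p = 0.066), -0.12 with the normalization that left out the Dlk1-Dio3 miRNAs (adjusted p = 0.534), and not called without Dnmt3a/3b-DKO replicate 1 or Dnmt-null replicate 1 (adjusted p = 0.185 and 0.061). Against Dnmt3a/3b-DKO too the miR-302 and miR-367 sum was lower in Dnmt-null without overlap (193250 to 203244 CPM in Dnmt3a/3b-DKO). Also without overlap, miR-290 was higher in Dnmt-null (23108 to 29547 against 15581 to 21633 CPM). Endoderm miRNAs were lower (2334 to 3042 against 4581 to 5719 CPM), as were those of mesenchyme or decidua (85.7 to 160 against 338 to 646 CPM). The Sfmbt2 cluster sums overlapped. The part of these markers was not tested. Between Dnmt-null and Dnmt1-KO, and Dnmt-null and Dnmt3a/3b-DKO, 0% and 0% of all miRNAs were called in Exe at E6.5. In Epi of that day these shares were 1.96% and 1.22%. A day later they were 1.17% and 3.85% for Exe, 10.9% and 16.4% for Epi. The nearest other value was miR-182-5p in the same E7.5 Epi comparison, at -0.26 (SE 0.097, adjusted p = 0.0822), with overlapping libraries. miR-96-5p in E6.5 Epi was at -0.66 against Dnmt1-KO (SE 0.24, adjusted p = 0.122), which DESeq2 called (adjusted p = 0.0463).

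The fourth comparison concerned the AG-haESCs, where the cluster took its largest share of a library. The 4 members made up 19.1% ± 0.18 (SD, n = 3) of all miRNA counts in WT cells and 18.0% ± 2.6 (n = 3) in O48 cells, against group means of 4.15% to 4.89% in E6.5 Epi, 2.93% to 3.37% in E7.5 Epi and 1.44% to 1.94% in Exe. miR-183-5p had 110187, 112052 and 114248 CPM in WT and 108932, 84368 and 104916 CPM in O48. miR-182-5p had 72173, 73237 and 71438 CPM in WT and 83689, 60246 and 77029 CPM in O48. O48 replicate 2 was the lowest of its group for both. miR-96-5p had 6590, 6709 and 6420 CPM in WT and 7054, 5648 and 6992 CPM in O48, and miR-183-3p 277 to 341 CPM and 270 to 353 CPM.

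Between O48 and WT cells edgeR called 0 of the 4 members, none of them at an unadjusted p under 0.05, beside 13.7% of all miRNAs (SE of the members 0.12 to 0.99). The log2 differences were -0.14 for miR-183-5p, 0.06 for miR-182-5p, 0.03 for miR-96-5p and 0.03 for miR-183-3p, and the median of all miRNAs was -0.28. By DESeq2 miR-96-5p was higher in O48 by 0.41 (adjusted p = 0.0337). The ratio of miR-183-5p to miR-182-5p was 1.55 ± 0.041 in WT and 1.35 ± 0.050 in O48, above all dissected group means. For miR-183-5p every O48 library was below the WT libraries.

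The libraries labelled Mir-6KO had the members at lower levels: 19668 and 22288 CPM of miR-183-5p, 20373 and 24735 CPM of miR-182-5p, 2535 and 2972 CPM of miR-96-5p, and 0.485 and 31.4 CPM of miR-183-3p. All lay below the O48 libraries. The log2 differences from O48 were -2.75, -2.21, -1.75 and -4.75 in that order (adjusted p = 2.59e-06, 2.42e-05, 4.51e-05 and 0.0223), in a comparison where 31.7% of all miRNAs were called lower. The miR-183-3p call was lost when only the compared groups were fitted (adjusted p = 0.072). In the same libraries miR-302 and miR-367 were above all SC embryo libraries, which held 21252 to 220309 CPM. The miR-290 cluster, abundant in naive pluripotent cells and here in Exe as well, summed to 12117 and 10510 CPM in them. WT and O48 cells had 58621 to 79191 CPM. The part of these differences, which go with the label, in the lower levels of the cluster was not tested.

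The fifth comparison set the WT cells against the E6.5 SC embryos made from them, and all 4 members were lower in the embryos. miR-183-5p had 22066, 22156 and 16474 CPM in SC WT embryos, against the 110187 to 114248 CPM of the cells, a log2 difference of -2.89 (SE 0.27, adjusted p = 3.35e-08). miR-182-5p had 24713, 21626 and 44847 CPM, a log2 difference of -1.60 (SE 0.32, adjusted p = 5.37e-04). miR-183-3p was counted 10, 11 and 0 times in the embryos and 1544, 1603 and 1055 times in the cells (log2 difference -4.63, SE 1.13, adjusted p = 0.00342). Neither 5p arm overlapped between cells and embryos. miR-96-5p stayed nearest to the cells, with 7326, 4633 and 3427 CPM in the embryos, and its log2 difference of -0.79 (SE 0.28, adjusted p = 0.0454) was lost without SC replicate 2 or 3 (adjusted p = 0.171 and 0.11), with a replicate block (-0.78, adjusted p = 0.0625), with the compared groups only (adjusted p = 0.0516) and with the normalization that left out the Dlk1-Dio3 miRNAs (adjusted p = 0.202). Of all miRNAs tested, 9.74% were called lower in the embryos.

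SC WT replicate 3, the library with little miR-302 and miR-367, held the highest miR-182-5p and the lowest miR-183-5p and miR-96-5p of its group. Without it the log2 differences were -2.86 for miR-183-5p, -2.15 for miR-182-5p, -4.14 for miR-183-3p and -0.64 for miR-96-5p, and the first 3 remained called (adjusted p = 5.57e-08, 1.97e-06 and 0.0138). Cells and embryos were different materials, and sample kind and any difference in how they were handled cannot be told apart. The ratio of miR-183-5p to miR-182-5p was 0.762 ± 0.35 in SC WT embryos, and 0.747 to 0.933 by group mean in all SC groups, below the 1.35 and 1.55 of the cells.

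**Figure D4:**
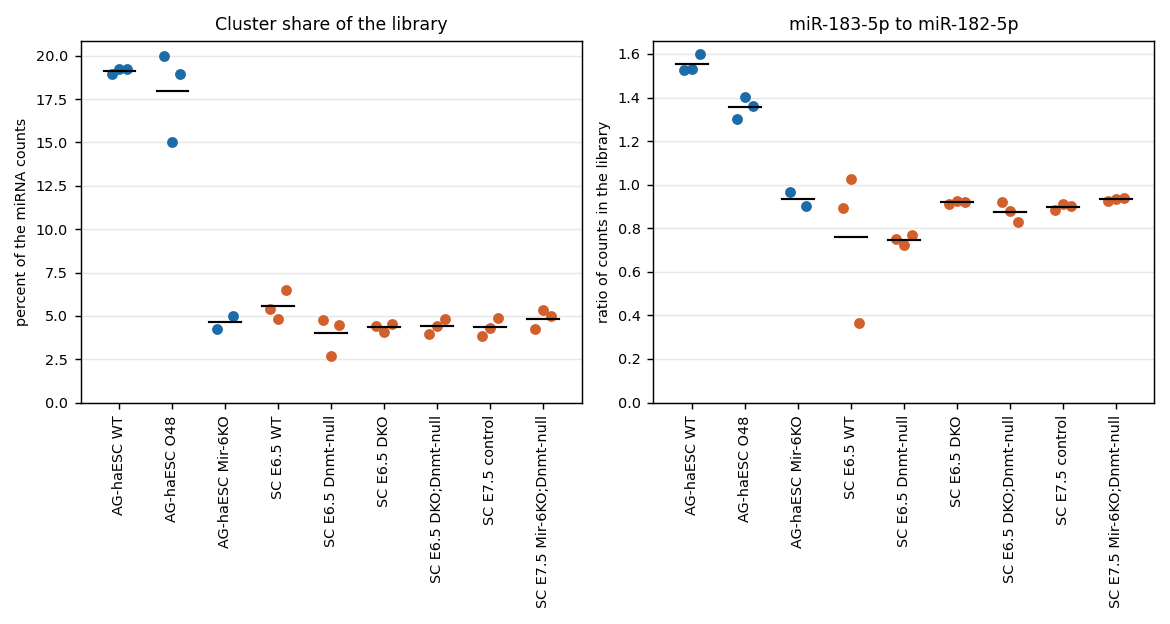
Share of all miRNA counts taken by the 4 members (left, percent) and count ratio of miR-183-5p to miR-182-5p (right) in each AG-haESC (blue) and SC embryo (orange) library, with group means as black lines. The WT and O48 cells hold 15.1% or more and ratios of 1.30 or more, and the libraries labelled Mir-6KO sit among the SC embryos at 4.26% and 5.003%.

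The last comparisons were between genotypes of SC embryos. SC E6.5 Dnmt-null had 18136, 9654 and 16935 CPM of miR-183-5p and 24127, 13371 and 22027 CPM of miR-182-5p, with replicate 2 low for both. The Sfmbt2 cluster sums of this group were 19283 to 60465 CPM (median 19304 CPM), the highest within the Exe range. Their part was not tested. SC E6.5 DKO had 18197, 16811 and 18821 CPM of miR-183-5p and 19986, 18164 and 20443 CPM of miR-182-5p. Against SC WT, edgeR called 0 of 3 tested members in Dnmt-null embryos and 0 of 3 in DKO embryos, with 0 at an unadjusted p under 0.05 in either, and DESeq2 also called 0, beside 1.52% and 0.217% of all miRNAs. These comparisons rest on SC WT replicate 3, which stands apart. Without it 4 members could be tested and edgeR again called 0 in either comparison, with 1 at an unadjusted p under 0.05, miR-183-5p in Dnmt-null embryos (-0.77, SE 0.29, adjusted p = 0.115), against -0.68 (SE 0.35, adjusted p = 0.312) with it.

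In SC DKO embryos miR-96-5p was tightly grouped at 6055, 5834 and 6047 CPM, and in DKO;Dnmt-null embryos it had 4926, 5673 and 5392 CPM. The groups did not overlap, and the log2 difference was -0.27 (SE 0.087, adjusted p = 0.0197), where 16.4% of all miRNAs were called lower. It was lost when the normalization left out the Dlk1-Dio3 miRNAs (adjusted p = 0.0833), and without DKO replicate 1 (adjusted p = 0.0647) or DKO;Dnmt-null replicate 1 (adjusted p = 0.0803). The DKO;Dnmt-null libraries came in a table of their own, so table and genotype cannot be told apart. Marker sums also moved without overlap, except those of miR-290. miR-302 and miR-367 had 130119 to 147052 CPM in DKO;Dnmt-null and 177971 to 196784 CPM in DKO. The Sfmbt2 cluster sums were 26050 to 33046 and 21546 to 24457 CPM, and those of endoderm miRNAs 2540 to 3505 and 1592 to 1953 CPM. The part of these markers in the call was not tested. The other 3 members had log2 differences of -0.10 to -0.02 and were not called.

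At E7.5, SC control embryos had 2365, 3282 and 3308 CPM of miR-96-5p and Mir-6KO;Dnmt-null embryos 2378, 3534 and 3235 CPM, and 0 of the 4 members were called between them, with 0 at an unadjusted p under 0.05 and 0 by DESeq2, beside 3.08% of all miRNAs. The E7.5 control and E6.5 DKO embryos both came from DKO cells. Between them miR-96-5p was lower at E7.5 with no overlap of libraries, by -0.77 on the log2 scale (SE 0.28, adjusted p = 0.0846), and was not called, beside 7.58% of all miRNAs. By DESeq2 the same value was -0.85 (adjusted p = 0.0128). The fit took its spread from all these cells and embryos, and without SC E6.5 WT replicate 3 the edgeR value was -0.77 (SE 0.24, adjusted p = 0.0394), past the threshold. The ratio of miR-96-5p to miR-182-5p was 0.307 ± 0.013 at E6.5 and 0.140 ± 0.018 at E7.5 in these SC embryos (n = 3 each), the same order of stages as in the dissected controls.

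Over the means of the 16 dissected groups, the 5p arms ran together. The correlation of log2 CPM was 0.981 between miR-183-5p and miR-182-5p, 0.931 between miR-96-5p and miR-182-5p and 0.908 between miR-183-5p and miR-96-5p, and 0.503 to 0.688 with miR-183-3p. The 16 points share tissue, stage and sequencing depth, and tissue separates them, so these values describe that pattern and carry no p. The miRNAs most like the mean of the 5p arms, out of 658, were miR-20b-5p (0.963), miR-106a-5p (0.948), miR-27b-3p (0.941), miR-302a-5p (0.924) and miR-363-3p (0.913). By rank correlation 3 of these 5 were again among the 5 most alike. miR-20b-5p had 1048 to 3329 CPM in E6.5 control Epi and 60.8 to 262 CPM in E6.5 control Exe, a wider gap than any member of the cluster showed in that comparison.

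The miR-200 family, which marks epithelia and is often measured beside this cluster, was called lower in Exe in no tissue comparison. Of 10 arms 9 were in the table. Over the 8 tissue comparisons only 2 calls were made, both in E7.5 Dnmt1-KO, where Exe was higher. They were miR-200b-3p by 0.62 and miR-200b-5p by 1.12 on the log2 scale (adjusted p = 0.0336 and 0.0282). In that comparison 123 of all 658 miRNAs tested were called higher in Exe. Whether the family differed from the cluster was not tested. From AG-haESC WT to SC WT embryos 8 of 9 were called higher, with a median log2 difference of 4.26 against -0.05 over all miRNAs, of which 11.4% were called higher, in the comparison in which all 4 members of the cluster were lower. Without SC WT replicate 3 the count was again 8 of 9, with a median of 4.23. miR-200c-3p had 148 ± 17 CPM in WT cells (n = 3), and 1282, 4951 and 5687 CPM from lowest to highest in SC WT embryos, of which replicate 3 stands apart.

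Of 6 arms of miRNA genes within 1 Mb of the cluster, 4 could be tested in the dissected tissues. In E6.5 controls miR-335-3p was called lower in Exe (log2 difference -1.48, SE 0.41, edgeR adjusted p = 0.00588). miR-29a-3p was also called lower in Exe there (edgeR adjusted p = 0.00238), and miR-29b-3p was not called (edgeR adjusted p = 0.764). miR-335-5p, from an intron of the imprinted gene Mest 571577 bp away, was lower in Exe than in Epi in all 4 genotypes at E6.5 (log2 differences of -2.47 to -1.78) and was called in none at E7.5, where Dnmt-null had -0.85 (SE 0.42, adjusted p = 0.175). In control Exe it was higher at E7.5 than at E6.5 by 2.69 on the log2 scale (SE 0.42, adjusted p = 2.28e-05), where miR-96-5p was called lower and the other 5p arms had log2 differences of -0.04 and -0.01. The opposite arms of the other hairpins, miR-182-3p and miR-96-3p, were rare, and 1 of their 16 tissue tests was called, miR-182-3p in E6.5 Dnmt1-KO (adjusted p = 0.0336).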

How the data were processed

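Raw counts per mature miRNA were deposited by the authors, who trimmed reads with fastp 0.20.1, mapped them to GRCm38 and then to miRBase mature sequences with bowtie 1.2.1.1, allowing templated 3′ extensions. An earlier copy of the table, not used, held the same counts for 88 libraries and 2 columns of no sample here. The members were taken by name, but they and the lists were chosen with earlier results of these data known.

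Levels are CPM of the library total. Tests were edgeR 4.0.16 quasi-likelihood fits across all miRNAs (R 4.3.3, TMM, filterByExpr with a minimum count of 10), with Benjamini-Hochberg adjustment over all miRNAs tested and calls at adjusted p under 0.05. All 16 dissected groups shared a fit for tissue, stage and interactions, and the 4 genotypes of a tissue and stage for genotype. Alternatives were DESeq2 1.42.0, other normalizations and filters, a replicate block, fewer groups, the study's thresholds and leaving out each library. The named miRNAs were the members, their other arms, equal seeds, the miR-200 family, genes within 1 Mb and the 5 most alike. The scripts were tested on simulated data. In 115 pairs of replicates the chi-square of their counts was at least 4.20 for each degree of freedom, so each library was kept as a sample of its own.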

Additional observations from a re-analysis of the deposited data

Results flagged for a closer look

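In 56 sets of 4 libraries (4 members in 14 groups), 7 had an extreme library far from the other three by Dixon's test at the 95% level, which chance gives in about 1 of 20 sets. For miR-183-5p these were the highest E6.5 Exe Dnmt-null library (replicate 4, 7112 CPM) and the lowest E6.5 Epi control library (replicate 2, 12616 CPM). For miR-182-5p it was the lowest E6.5 Epi Dnmt-null library (replicate 1, 18036 CPM), which is also the shallowest library of the series with 45242 counts. The other 4 were of miR-183-3p: 2.76 CPM in E6.5 Exe Dnmt1-KO replicate 1, from 1 count; 17.5 CPM in E6.5 Exe Dnmt3a/3b-DKO replicate 2, from 2 counts; 8.16 CPM in E6.5 Exe Dnmt-null replicate 2, from 1 count; and 59.7 CPM in E7.5 Epi Dnmt3a/3b-DKO replicate 2, from 73 counts.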

How the results depend on the processing

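Of 45 called values, 32 kept their call and direction in every other setting and 34 in every fit without 1 library; 13 lost the call in at least 1 other setting, 1 of them with a change of sign, and 11 without some library. Of 176 uncalled values, 57 changed sign and 15 were called in some other setting, and 68 and 2 without some library. The 27 tissue calls were 24 to 27 in all settings. The 7 stage calls were 11 by DESeq2, 4 with no filter and 5 to 8 without 1 library. The 1 genotype call became 0 with RLE, without Dlk1-Dio3 miRNAs in the normalization, with no filter, with a mean of 10 counts, or with the compared groups only. By DESeq2 that call was lost too. At the study's thresholds (log2 difference over 0.5 and unadjusted p under 0.05) it was lost and 2 other values were called. Without 1 library there were 0 or 1. The 1 call between Dnmt-null and the other mutants was lost by DESeq2 and at the study's thresholds, and each of these called 2 other values. It became 0 with RLE, without Dlk1-Dio3 miRNAs, with no filter and with a mean of 10 counts, and 0 or 1 without 1 library. The 1 SC call became 0 without Dlk1-Dio3 miRNAs and at the study's thresholds, and 0 or 1 without 1 library. The 0 interaction calls became 3 at the study's thresholds, an alternative added after the data were seen. The cause of these changes was not tested.

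Signs turned for miR-183-5p between Dnmt-null and control in E7.5 Epi (0.036 without Dlk1-Dio3 miRNAs), for miR-96-5p between stages in Dnmt-null Exe (0.0084 in that setting, and -0.42 to 0.028 without 1 library), and for miR-96-5p between O48 and WT cells (-0.0082 to 0.16 without 1 library).

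Same-numbered replicates did not pair: correlations of their deviations ran from -0.189 to 0.243, with every pair over 0.1 in 0 of 41 comparisons. With a replicate block the stage calls were 8 and the tissue calls 27. Depth limited miR-183-3p, at 0 to 17 counts in E6.5 tissues.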

Other observations

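The 3 libraries labelled 408-AG-haESC, which were placed in no group, had 104749, 105218 and 104538 CPM of miR-183-5p, 66636, 65120 and 65717 CPM of miR-182-5p, 5548, 6455 and 6173 CPM of miR-96-5p and 290 to 328 CPM of miR-183-3p. The cluster took 17.7% of their counts, and the ratio of miR-183-5p to miR-182-5p was 1.57 to 1.62.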
